A study of Arabidopsis thaliana with 8 samples.

Results

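The genes of the mitochondrial genome were followed in whole Arabidopsis thaliana seedlings that carry the WIN1 gene behind the 35S promoter (genotype field 35S:WIN1:NOS), set against seedlings titled vector control. The members were all non-control probes whose locus name is ATMG followed by digits, and 4 of 37478 probes met that rule: ATMG00580, ATMG00516, ATMG00285 and ATMG00300, with 1 probe each. Both groups were Columbia-0, 2 weeks old, grown on MS agar with 1% sucrose under 16 h light and 8 h dark at 23 °C, and each had 4 samples, each on its own one-colour array. The genotype field of the controls reads wild type rather than vector. The 35S promoter is active in most tissues, the labels do not say how many transgenic lines were used, and several seedlings from a shared plate were harvested per sample. Because nothing states that the samples came from separate cultures, each p-value reflects only how far these samples vary, and that variation may be technical.

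Plant mitochondria keep a genome of their own, transcribed by phage-type RNA polymerases that the nucleus encodes. It codes for a part of the subunits of the respiratory chain, the ATP synthase and the organelle's ribosomes, and the other subunits of the same complexes come from nuclear genes. Transcripts of the organelle are trimmed, spliced and edited by nuclear-encoded proteins, and their levels are known to depend heavily on RNA stability. The files and the reference table give no gene name for any of the 4 loci, so they are called by locus here and no role is assigned. The labels name an Agilent QuickAmp one-color kit, a type that primes from poly(A) tails. In plant mitochondria such tails are known as marks of RNA decay, and the tailing of these transcripts was not measured. In RNA of whole seedlings, fewer cells or organelles and less RNA per cell cannot be told apart.

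WIN1 itself (AT1G15360), an AP2/ERF factor known for cuticle formation, checked the labels: its log2 level relative to the 75th percentile was 4.85 in 35S:WIN1 and -8.21 in the control, where 1 of 4 arrays was well above background. With dim control values raised to the background floor it was at least 3836-fold higher. The 75th percentile of signal, by which each array was scaled, lay between 996.7 and 2490 in 35S:WIN1 and between 1790 and 2354 in the control, and the share of probes well above background was 58.9 to 65.4% in 35S:WIN1 and 62.8 to 65.3% in the control. All 5 green shoot markers and all 5 root markers were measured, as were 3 of 3 epidermis markers, while 0 of 5 flower and seed markers passed the filter on dim probes. Each group was hybridised on 1 slide of its own, and genotype and slide therefore cannot be told apart here.

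All 4 mitochondrial loci were well above background on 8 of 8 arrays, and none was saturated. Among them, ATMG00580 was lower in 35S:WIN1, by 1.76-fold, and the other 3 did not pass the test. ATMG00516 and ATMG00285 had higher mean levels in 35S:WIN1 on the percentile scale and ATMG00300 a lower one. Beside this count of 1 of 4 lower and 0 higher, 35.3% of the 20443 loci tested were called. Of all loci tested, 20.2% were called lower and 15.1% higher, so the share called among the members is near the background. The median difference over the 4 members was 0.02 on the log2 scale, against -0.04 over all loci.

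ATMG00580 was by far the brightest of the 4 probes. Its processed signal, a linear brightness after background subtraction, was 25110, 19210, 30082 and 65312 on the 35S:WIN1 arrays 1 to 4, and 67033, 72642, 67623 and 76221 on the control arrays 1 to 4. Relative to each array's 75th percentile, its log2 level was 4.65, 3.92, 3.73 and 4.71 in 35S:WIN1 and 5.23, 5.11, 4.92 and 5.02 in the control. All 35S:WIN1 arrays lay below all control arrays, which held for 20.3% of the loci tested (35.7% did not overlap in either direction), and the gap between the groups was 0.20. Replicates 2 and 3 of 35S:WIN1 were the low ones, while replicates 1 and 4 lay close under the controls.

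The means of ATMG00580 were 4.25 ± 0.50 in 35S:WIN1 and 5.07 ± 0.13 in the control (SD, n = 4 each). The log2 difference was -0.81 (SE 0.24, 95% interval -1.35 to -0.27), with an adjusted p of 0.0296 by limma with Benjamini-Hochberg adjustment over all loci tested. The spread in 35S:WIN1 was wider than in the control. The call was lost in 6 of the 8 fits that left out 1 array, and held without 35S:WIN1 replicate 1 (-0.95, adjusted p = 0.0262 by limma) or 4 (-0.97, adjusted p = 0.0116). It was lost without 35S:WIN1 replicate 2 (-0.70, adjusted p = 0.0709 by limma) or 3 (-0.64, adjusted p = 0.0612), without vector control replicate 1 (-0.76, 0.0765), 2 (-0.80, 0.0680), 3 (-0.86, 0.0511) or 4 (-0.83, 0.0559), after quantile normalization (-0.67, 0.0505), and with 35S:WIN1 replicates 1 and 2, the dimmest, both left out (-0.85, 0.0731). The direction held in all 21 alternative settings. Not all of these could change it: the filters, the mean over probes, the replicate block and the variance models without array weights leave the difference at -0.81. For ATMG00580 those settings change only the SE and the adjusted p.

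**Figure D1:**
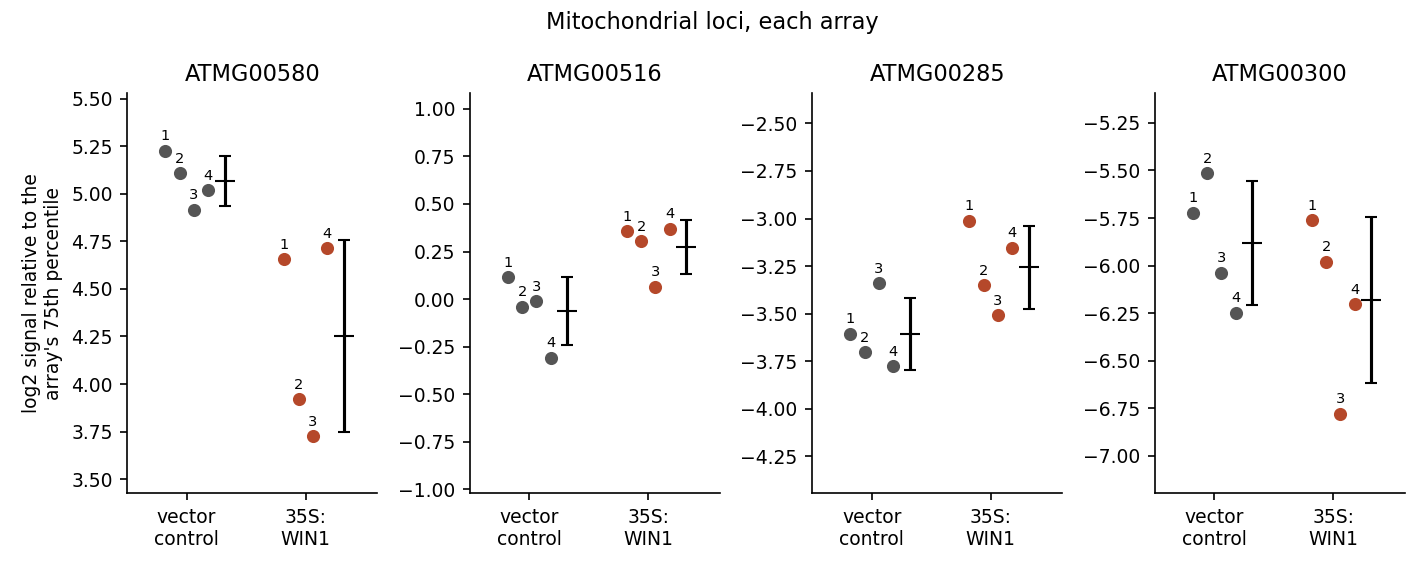
Each panel shows one mitochondrial locus, with the log2 processed signal relative to the array's 75th percentile on the vertical axis (panels span equal ranges at different levels). Points are arrays, numbered by replicate, and bars are the mean and SD of 4 arrays. For ATMG00580 every 35S:WIN1 array lies below every control array, and in the other 3 panels the groups overlap.

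ATMG00516 lay in the middle of the brightness range. Its processed signal was 1275, 1566, 2378 and 3216 in 35S:WIN1 and 1939, 2047, 2224 and 1901 in the control. The log2 levels were 0.36, 0.30, 0.06 and 0.37 against 0.12, -0.04, -0.01 and -0.31. In 35S:WIN1, 3 arrays were above the highest control array and replicate 3 fell within the control range. The difference of 0.33 (SE 0.12, interval 0.05 to 0.62) had a raw p of 0.0271 and did not pass after adjustment (adjusted p = 0.0686 by limma).

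ATMG00285 gave a difference of similar size at a dimmer probe. Its signal was 124, 124, 199.7 and 279.7 in 35S:WIN1 and 147, 162, 221 and 172 in the control. The log2 levels were -3.01, -3.35, -3.51 and -3.15 against -3.60, -3.70, -3.34 and -3.77, so 2 of the 35S:WIN1 arrays lay above the highest control and the groups overlapped. The difference was 0.35 (SE 0.15, interval 0.01 to 0.68, adjusted p = 0.0966 by limma).

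ATMG00300 was the dimmest member, with signals of 18.4, 20.1, 20.7 and 33.8 in 35S:WIN1 and 33.9, 46.1, 34.1 and 31.0 in the control. The log2 levels were -5.76, -5.98, -6.78 and -6.20 against -5.72, -5.51, -6.04 and -6.25, and only replicate 3 of 35S:WIN1 fell below the lowest control. The difference of -0.30 (SE 0.25, interval -0.86 to 0.26) did not pass (adjusted p = 0.373 by limma), and it turned to 0.31 with normexp background correction.

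Whether the 4 loci moved apart from each other can be asked without any scaling between arrays, from the log2 ratio of a pair of probes on the same array. With the control mean of each ratio set to 0, ATMG00580 over ATMG00516 was -0.83, -1.51, -1.47 and -0.78 on the 35S:WIN1 arrays and -0.02, 0.02, -0.20 and 0.20 on the control arrays. The groups did not overlap, and the ratio fell by 1.15 on the log2 scale (exact two-sided permutation p = 0.0286, the smallest that 4 arrays against 4 allow, and 0.0667 after Benjamini-Hochberg adjustment over 7 ratios).

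ATMG00580 over ATMG00285 gave a difference of the same order. It was -1.01, -1.40, -1.44 and -0.80 in 35S:WIN1 against 0.16, 0.14, -0.42 and 0.12 in the control, a fall by 1.16 with no overlap (exact permutation p = 0.0286, adjusted 0.0667). ATMG00300 over ATMG00516 fell by 0.63, also with no overlap (exact permutation p = 0.0286, adjusted 0.0667), and ATMG00300 over ATMG00285 fell by 0.65 with overlap (exact permutation p = 0.0571, adjusted 0.08). The ratio of ATMG00300 to ATMG00580 was 0.51 higher, with overlap (exact permutation p = 0.0571, adjusted 0.08). With normexp background correction the single differences were 0.31 for ATMG00300, 0.31 for ATMG00516, 0.38 for ATMG00285 and -0.87 for ATMG00580. Ratios with ATMG00300, the dimmest probe, therefore depend on the background correction. ATMG00516 over ATMG00285 differed by -0.01, with SDs of 0.12 and 0.18 in the groups (exact permutation p = 0.914). None of the 7 ratios passed after adjustment. Of the single loci tested, 35.7% did not overlap between the groups, and the share among ratios of other pairs of loci was not computed. The ratios describe these arrays only and do not tell which member of a pair differed.

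**Figure D2:**
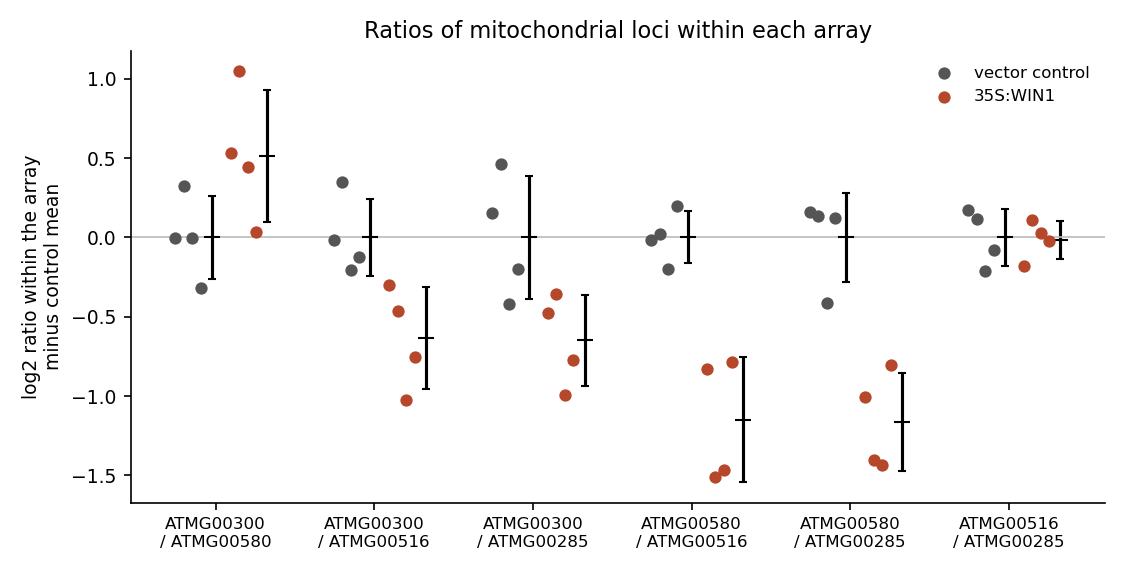
Log2 ratios of pairs of mitochondrial loci within each array, with the control mean of each ratio subtracted, for 4 control and 4 35S:WIN1 arrays. Bars are the mean and SD. ATMG00580 over ATMG00516 and over ATMG00285 separates the groups without overlap, and ATMG00516 over ATMG00285 lies around 0 in both.

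The summed processed signal of the 4 probes was 0.0516, 0.0322, 0.0299 and 0.0559% of the signal of all non-control probes in 35S:WIN1, and 0.0707, 0.0671, 0.0616 and 0.0647% in the control. The means were 0.0424% ± 0.0132 and 0.0660% ± 0.00384 (SD, n = 4 each). This share is itself relative to the total signal of each array and is no measure of absolute amount. It was carried by ATMG00580, which gave 91.8 to 94.9% of the members' signal in 35S:WIN1 and 96.5 to 97.3% in the control.

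How far each locus appeared lower or higher depended on the reference used between arrays. Scaled to the median of the spike-in controls, all 4 members were called lower in 35S:WIN1: ATMG00580 by -2.45, ATMG00300 by -1.93, ATMG00516 by -1.30 and ATMG00285 by -1.29. The fit gave each of the 4 the same SE of 0.55. All loci share 1 spike-in offset per array, so these calls are not separate evidence for each locus. On that scale the median over all loci was shifted by -1.63, and 83.9% of loci were called lower, 17160 against 402 higher, where the percentile scale gave 4138 lower and 3078 higher. Against the 75th percentile, the spike-in median itself stood at 2.77 to 4.38 in 35S:WIN1 and at 1.55 to 2.78 in the control. The part of labelling or of the RNA amount in that shift was not tested.

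The deposited values, which carry no scaling between arrays beyond a constant per slide, lay between these settings. On them ATMG00580 differed by -1.21 (adjusted p = 0.0463 by limma), ATMG00300 by -0.70, ATMG00516 by -0.07 and ATMG00285 by -0.05, and the median over all loci was shifted by -0.40. Relative to the median of all loci, ATMG00580 stood at -0.77 and ATMG00516 at 0.38 on the percentile, spike-in and deposited scales alike. On the percentile scale ATMG00285 stood at 0.39 and ATMG00300 at -0.26 relative to that median, with nearly the same values on the other two. These scales differ only by a constant per array, so this likeness follows from the arithmetic and is no separate check.

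**Figure D3:**
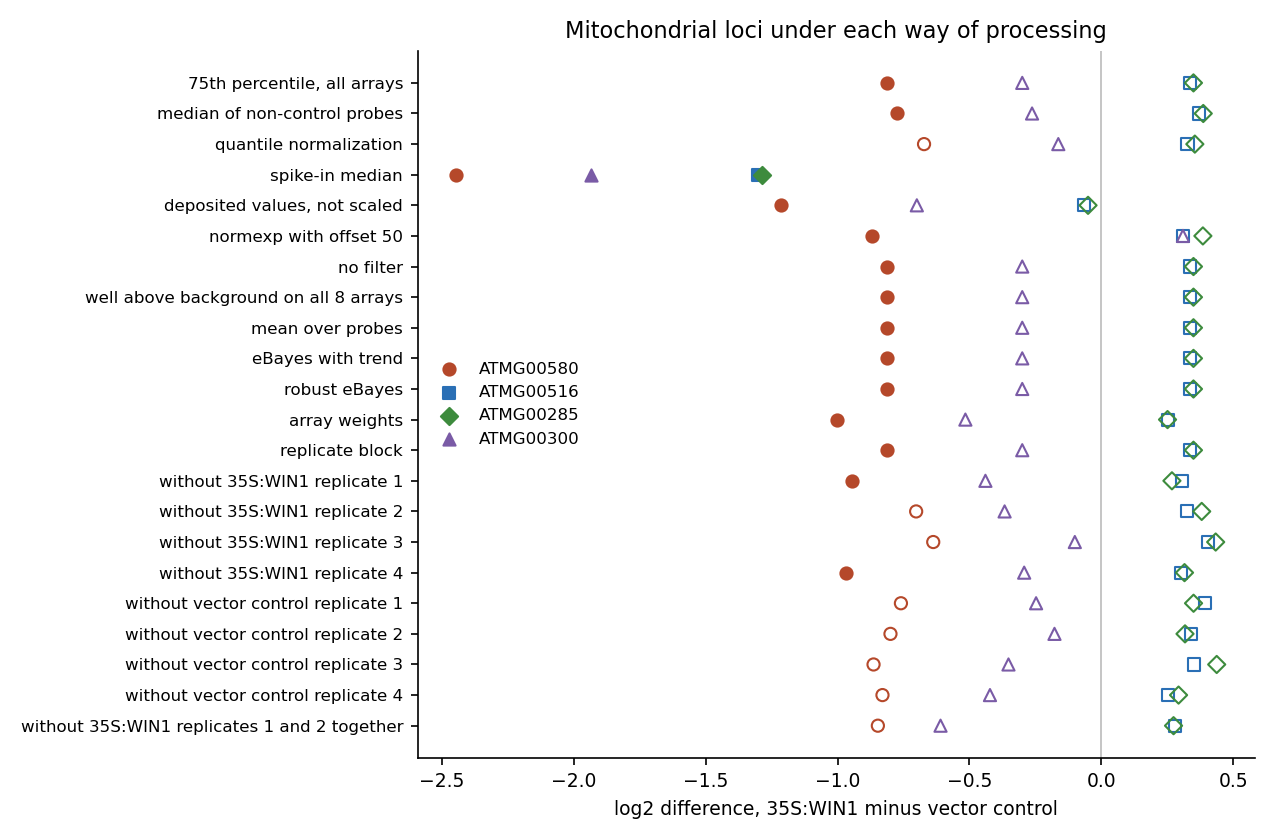
Log2 difference of each mitochondrial locus (35S:WIN1 minus vector control) under each scaling, filter, variance model and left-out array. Filled symbols have an adjusted p under 0.05 and open symbols do not. ATMG00580 is lower in every setting, and ATMG00516 and ATMG00285 turn from higher to lower on the spike-in scale (-1.30 and -1.29) and the deposited scale (-0.07 and -0.05).

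By Pearson correlation over the 8 arrays among 20266 loci with complete values, the loci with a pattern most like ATMG00580 were LHCB2.2 (AT2G05070; r = 0.987), LBD20 (AT3G03760; r = 0.983) and LHCB2.1 (AT2G05100; r = 0.974). The arrays fall into the study's groups, so these values describe likeness only. LHCB2.2 and LHCB2.1 code for light-harvesting proteins of photosystem II, and LBD20 belongs to the LOB-domain family of transcription regulators. LHCB2.2 had log2 levels of -5.79, -7.79, -8.05 and -5.33 in 35S:WIN1 against -4.28, -4.40, -4.46 and -4.26 in the control. That its low replicates 2 and 3 are those of ATMG00580 follows from choosing it by likeness. LHCB2.2 was well above background on 2 of 4 35S:WIN1 arrays. All 3 are dim probes. With normexp correction LHCB2.2 moved from -2.39 to -0.31, LHCB2.1 from -2.03 to -0.36 and LBD20 from -0.87 to 0.14, and none was called.

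LHCB2.1 is also one of the green shoot markers, of which 2 of 5 were lower (LHCB2.1 by -2.03 and CA1-beta by -2.07) and 0 higher. These shares of 40% and 0% stand beside 20.2% lower and 15.1% higher among all loci. The median difference of the 5 was -0.69. LHCB2.1 lost its call in 4 of the 8 fits that left out 1 array (35S:WIN1 replicate 3 or vector control replicate 1, 2 or 4), with values from -2.41 to -1.56 over the 8. The summed level of the 5 green shoot markers, as a multiple of the 75th percentile, ranged from 184 to 289.6 in 35S:WIN1 and from 224.5 to 281 in the control. Of the 5 root markers 3 were lower (60%, against 20.2% of all loci) and 2 higher (40%, against 15.1%). Their differences ran from -4.68 to 6.01. The summed level of the root markers ranged from 2.92 to 7.57 in 35S:WIN1 and from 4.72 to 6.95 in the control. That sum joins markers that changed in opposite directions. None of these markers was at 0, though MRN1 was well above background on 1 of 4 control arrays and NRT2.1 on 2 of 4 35S:WIN1 arrays. Their part in the values of the mitochondrial loci was not tested.

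The only chloroplast-genome probe on the array, ATCG01000, was lower as well. Its log2 level was 0.60, -0.03, 0.69 and 0.75 in 35S:WIN1 and 1.35, 1.37, 1.61 and 1.33 in the control, with no overlap. The difference was -0.92 (SE 0.18, adjusted p = 0.00636 by limma), and the call held in all 21 alternatives. The ratio of ATMG00580 to ATCG01000 differed by 0.10 between the groups (exact permutation p = 0.629, adjusted 0.733), with group SDs of 0.48 and 0.24. With the control mean set to 0, it was 0.40, 0.30, -0.61 and 0.31 in 35S:WIN1. The control arrays gave 0.22, 0.08, -0.34 and 0.03. The small mean difference thus includes the low value of 35S:WIN1 replicate 3, which is flagged below.

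Chromosome 2 of the nucleus holds a copy of mitochondrial DNA, and transcripts of the copy and of the organelle could bind the same probe. The files do not say which loci lie in the copy, so all loci from AT2G07600 to AT2G07899, a range around it that also holds ordinary nuclear genes, were taken: 55 loci, of which 48 were tested. Of these, 5 were lower and 0 higher, 10.4% lower against 20.2% of all loci, and the differences ran from -0.996 to 0.65 with a median of -0.21. The 5 were AT2G07698 (-0.996, SE 0.20, adjusted p = 0.00720 by limma), AT2G07751 (-0.76, adjusted p = 0.0152), AT2G07696 (-0.76), AT2G07725 (-0.72) and AT2G07776 (-0.43). They were chosen for naming after their values were seen.

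AT2G07698 had log2 levels of 1.15, 0.48, 0.29 and 0.96 in 35S:WIN1 and 1.89, 1.78, 1.46 and 1.74 in the control. Its lowest arrays were replicates 2 and 3 of 35S:WIN1, and the groups did not overlap, as for 35.7% of all loci tested. Whether its probe shares signal with any of the 4 members was not tested. AT2G07698 and AT2G07751 stayed called in all 21 alternatives. The count of 5 fell to 2 when 35S:WIN1 replicate 2 or 3 was left out, or any of vector control replicates 1 to 3, and was 9 without 35S:WIN1 replicate 4 and 8 without vector control replicate 4.

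The nuclear partners of the mitochondrial genome were read from 7 lists of 94 loci, of which 92 were tested. Of these 16 were lower (17.4%, against 20.2% of all loci) and 4 higher (4.35%, against 15.1%), with a median of -0.12. Both shares lie below those of all loci. The count of 16 lower fell to 5, 7 and 6 without 35S:WIN1 replicate 1, 2 or 3, and to 7, 5, 10 and 6 without vector control replicates 1 to 4. It was 21 without 35S:WIN1 replicate 4. Of the 20 calls, 8 held whichever single array was left out.

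For the complexes of oxidative phosphorylation, which the nuclear and mitochondrial genomes build together, 10 of 45 nuclear genes were lower (22.2%, near the 20.2% of all loci) and 0 were higher (against 15.1% of all loci), with a median of -0.20. In complex I, the entry point for NADH electrons, 4 of 15 were lower (26.7%). These were AT1G79010 (-2.04, SE 0.45, adjusted p = 0.01002 by limma), AT1G16700 (-1.42, SE 0.29, adjusted p = 0.00690), GAMMA CAL1 (-0.32) and AT5G52840 (-0.30). AT1G16700 had log2 levels of -4.65, -4.77, -4.87 and -3.55 in 35S:WIN1 and -3.08, -2.92, -3.32 and -2.86 in the control, with no overlap. AT1G79010 was well above background on 2 of 4 35S:WIN1 arrays, and with dim values raised to the background floor its difference was -1.68. The pair code for closely similar proteins, listed for the same iron-sulphur subunit, and how far their probes share signal was not tested.

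None of the 5 complex II genes, for succinate dehydrogenase, passed the test, and their differences ran from -0.49 to 0.24. Among complex III and cytochrome c, 3 of 11 were lower (27.3%): AT5G13430 (-1.04), AT5G13440 (-0.33), both listed for the Rieske protein, and AT4G32470 (-0.39). In complex IV, the terminal oxidase, AT1G80230 was the 1 lower gene of 5 (-0.61). In complex V, the ATP synthase, 2 of 9 were lower (22.2%), AT1G51650 (-0.98, SE 0.21, adjusted p = 0.00910 by limma) and AT5G47030 (-0.37).

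AT1G51650 had levels of 1.38, 1.78, 1.44 and 1.71 in 35S:WIN1 and 2.63, 2.80, 1.95 and 2.85 in the control, and the groups did not overlap. Of the 10 calls in these complexes, those of AT1G79010, AT1G16700 and AT1G51650 held whichever single array was left out. With normexp background correction AT1G79010 shrank to -0.27 (adjusted p = 0.479 by limma) and AT1G16700 to -0.52 (adjusted p = 0.0780), and neither was called. Without 35S:WIN1 replicates 1 and 2, the dimmest arrays, 0 of the 10 was called. The count was 3, 5, 4 and 11 without 35S:WIN1 replicates 1 to 4, and 5, 3, 8 and 3 without vector control replicates 1 to 4.

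Nuclear genes that transcribe, process and maintain the mitochondrial genome gave 4 lower of 28 tested (14.3%, below the 20.2% of all loci) and 0 higher (against 15.1%), with a median of -0.11. RECA3, a recombinase homologue of the organelle, had log2 levels of -0.82, -0.70, -0.71 and -0.45 in 35S:WIN1 and -0.01, -0.05, -0.14 and -0.22 in the control. Its difference was -0.56 (SE 0.11, adjusted p = 0.00610 by limma), with no overlap. MORF3, an organellar RNA editing factor, had levels of -0.46, -0.28, -0.77 and -0.34 against 0.26, 0.11, 0.07 and 0.07, a difference of -0.59 (SE 0.13, adjusted p = 0.00945). The other two were EMB2730 (-0.52), a mitochondrial exoribonuclease by its synonyms, and RUG3 (-0.31). RECA3 and MORF3 stayed called with any single array left out. The count was 2 without any one of 35S:WIN1 replicates 1 to 3 or vector control replicates 1 to 3. It was 6 without 35S:WIN1 replicate 4 and 3 without vector control replicate 4.

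The list for alternative respiration and mitochondrial stress held the largest changes among these nuclear genes. Of 19 tested, 4 were higher (21.1%, against 15.1% of all loci) and 2 lower (10.5%, against 20.2%). The list median of 0.39 was the value of a dim probe, NDB4. Its mean log2 levels were -5.96 in 35S:WIN1 and -6.35 in the control (SE of the difference 1.48, adjusted p = 0.859 by limma). AOX1D, an alternative oxidase that passes electrons from ubiquinol to oxygen without pumping protons, had log2 levels of 0.48, 0.20, 0.04 and 0.33 in 35S:WIN1 and -5.42, -5.11, -4.96 and -3.66 in the control. It was 33.1-fold higher (log2 difference 5.05, SE 0.35, adjusted p = 6.89e-05 by limma).

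OM66, an outer membrane protein used as a marker of mitochondrial stress signalling, had levels of 1.43, 0.18, 0.09 and 0.90 against -3.17, -1.86, -3.21 and -1.58. It was 8.60-fold higher (log2 difference 3.105, SE 0.46, adjusted p = 0.00198). AOX1D and OM66 were called higher in all 21 alternatives. NDA2, an alternative NAD(P)H dehydrogenase, was 0.83 higher (SE 0.13, adjusted p = 0.00281) and TIM17-1, an import translocase subunit, 0.90 higher (adjusted p = 0.0292), though on the spike-in scale, which shifts all loci alike, both turned to lower values (-0.81 and -0.73). Relative to the median of all loci they stood at 0.87 and 0.95 on both scales, which follows from that common shift. The call of TIM17-1 was lost in 5 of the 8 fits that left out 1 array.

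NDC1 (-0.60) and NDB1 (-0.31), alternative dehydrogenases too, were the 2 lower genes, and neither was called in 7 of the 8 such fits. AOX1A, the family member best known for its induction by respiratory inhibitors, had a difference of 0.30 (SE 0.33) that did not pass (adjusted p = 0.496), and it was picked for naming after its value was seen, as were TIM17-1 and NDB1.

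**Figure D4:**
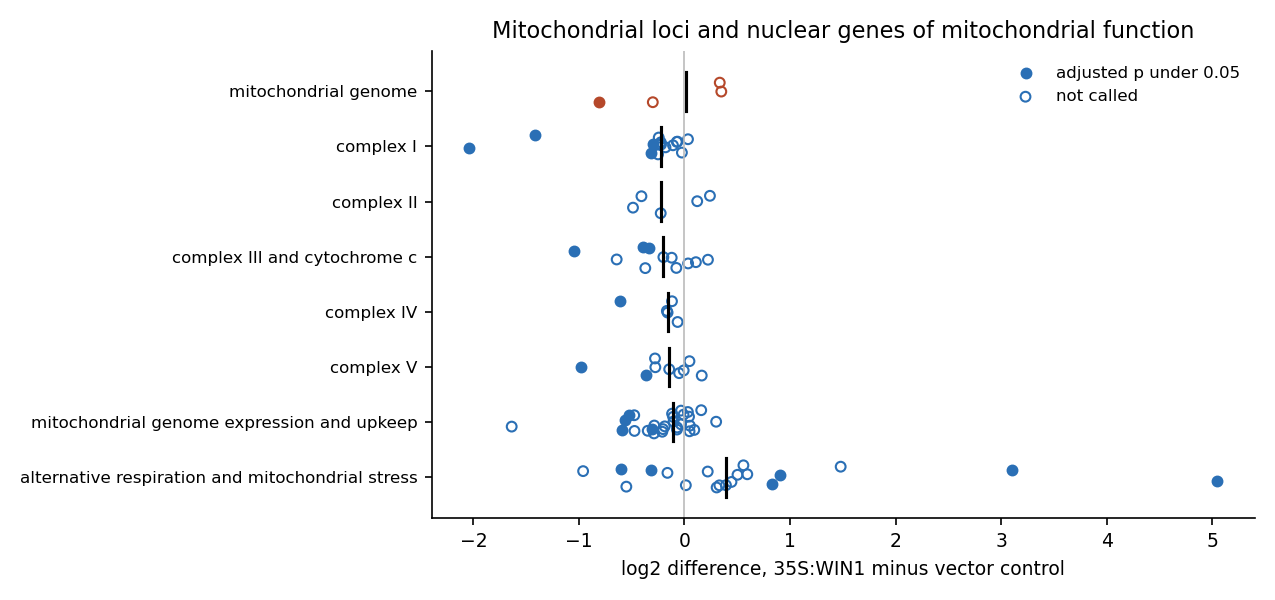
Log2 difference (35S:WIN1 minus vector control, percentile scale) of the 4 mitochondrial loci in the top row and of the 92 nuclear loci tested, by list. Filled points have an adjusted p under 0.05, black lines are medians, and points are spread vertically within a row only for legibility. AOX1D (5.05) and OM66 (3.105) lie far to the right. On the spike-in scale NDA2 and TIM17-1 turn to negative values.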

How the data were processed

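Intensities came from 8 one-colour Agilent arrays, Cy3-labelled from 1 µg of total RNA per the labels. Per the submitters' processing notes, the authors used Agilent Feature Extraction 9.1.3.1. Its processed signal is a linear intensity after background subtraction, per the file headers. The deposited values of the whole series matched it divided by a constant per slide, within 1% for at least 99.9973% of probes on each array.

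Levels were log2 processed signal relative to the 75th percentile of non-control spots on that array. Outlier spots were left out and spots of a probe averaged. A locus was its probe with the highest mean, kept if at least 4 of 8 arrays had it well above background. Of 25665 loci named, 20443 were tested with limma 3.58.1 (lmFit, eBayes) in R 4.3.3 (data.table, version 1.17.8), two-sided, at an adjusted p of 0.05. Single ratios were tested by exact permutation. Groups came from the titles. Named genes are WIN1, the members, up to 4 members of each nuclear list with the smallest p (those called are printed), and the 3 loci most like the called member. Members and lists were chosen with earlier results of these data known. Names follow RefSeq TAIR10.1, which matched 20326 of the tested loci and none of the members, and OM66 is listed there as BCS1. Normexp (offset 50) used the median signal, since the files hold no mean signal column.

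Alternatives were 4 scalings, normexp, 2 filters, the mean over probes, 3 variance models, a replicate block and left-out arrays. Same-numbered samples of the 2 groups had correlated deviations of -0.04, 0.06, 0.14 and 0.04, so the numbers were not taken as pairs. On simulated arrays of the 20443 loci, recovery in this comparison was 22% for changes of 1.5-fold, 60% for 2-fold, 88% for 4-fold and 94% for 8-fold, and 3.65% of calls were false. The number of arrays limits the precision.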

Additional observations from a re-analysis of the deposited data

Results flagged for a closer look

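In 24 groups of 4 arrays examined (levels and ratios), 2 values stood apart from the other 3 of their group by Dixon's 95% criterion, where chance gives about 1 in 20. The log2 ratio of ATMG00580 to ATMG00285 was 8.26 in vector control replicate 3, below the other controls. The log2 ratio of ATMG00580 to ATCG01000 was 3.04 in 35S:WIN1 replicate 3, below the other 35S:WIN1 arrays.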

How the results depend on the processing

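The number of members called lower was 0 to 1 with single arrays left out, 0 after quantile normalization and when the dimmest arrays (35S:WIN1 replicates 1 and 2) were left out, and 4 on the spike-in scale. It was 1 in the other settings, and ATMG00580 was called in 13 of 21. The median over the members ranged from -0.09 to 0.15 with single arrays left out and was -1.62 on the spike-in scale, -0.38 with the deposited values, 0.31 with normexp and -0.17 without replicates 1 and 2 of 35S:WIN1. Loci called lower and higher numbered 17160 and 402 on the spike-in scale, 2088 and 905 with the deposited values, 2367 and 1951 without 35S:WIN1 replicates 1 and 2, and 2983 to 4628 and 2272 to 3707 with single arrays left out. Nuclear list genes called lower numbered 8 with median scaling, 85 on the spike-in scale, 4 with deposited values, 8 without a filter, 2 without 35S:WIN1 replicates 1 and 2, and 5 to 21 with single arrays left out. Those called higher numbered 2 on the spike-in and deposited scales and 3 to 4 with single arrays left out. On the spike-in scale ATMG00285 (-1.29), ATMG00516 (-1.30), NDA2 (-0.81), TIM17-1 (-0.73) and AOX1A (-1.33) turned to lower, and with normexp LBD20 turned to 0.14. The cause of these changes was not tested.

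With the replicate number as a block, ATMG00580 stayed called (adjusted p = 0.0335 by limma), while nuclear list genes called lower numbered 8 and the lower genes of oxidative phosphorylation 5. The samples share a number only. Dim probes such as ATMG00300 are limited by background, and 1 slide per group limits every comparison.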
